A study of Mus musculus with 21 samples.

Results

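The genes described here are 46 listed mouse genes of the lysosome, the acidic organelle in which cells break down protein, glycan and lipid. They comprise cathepsins and legumain, lysosomal membrane proteins, glycan hydrolases, sphingolipid enzymes with related soluble proteins, subunits of the vacuolar proton pump, the MiT/TFE transcription factors and the autophagy receptor Sqstm1. They were taken by gene symbol from 3 expression tables, a rule that uses no measured value. Of the 46 genes, 43 were among 14178 genes of the inhibitor table, 42 among 15623 of the knockdown table and 45 among 13949 of the overexpression table. In all, 41 genes were in every table. Lgmn, Cd63 and Hexa are not analysed here in the inhibitor and knockdown experiments, Ctsh is not analysed in the knockdown, and Atp6v0d2 is not analysed in the overexpression experiment.

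The series is RNA sequencing of established mouse acute myeloid leukaemia lines, grown with stem cell factor, in 21 libraries that fall into 8 groups and 3 experiments. In cells transformed by flag-tagged NUP98-NSD1, a fusion of a nuclear pore protein with a histone methyltransferase, the PRC2 inhibitors UNC1999 or JQEZ5 were given at 3 µM for 4 days, with DMSO, the solvent, as control (3 libraries each). PRC2 is the complex that methylates lysine 27 of histone H3. The same kind of cells received pLKO.1-puro lentivirus with an shRNA against Kdm5b, a histone H3 lysine 4 demethylase (shKdm5b), or the empty vector (shEV), and were then selected with puromycin (3 libraries each). Cells transformed by MLL-AF9, a fusion of a histone methyltransferase gene with a gene of the transcription elongation machinery, received MSCV-neo retrovirus with Kdm5b, either wild type (WT) or the demethylase-dead mutant H499A, or the empty vector (EV), with 2 libraries each. All WT and H499A cells keep their own Kdm5b, and every group carries its fusion oncogene. Whether the libraries of a group stem from separate cultures is not given, and the p-values therefore measure a spread that may be technical.

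Lysosomal hydrolases work in an acid lumen, which the vacuolar proton pump maintains by coupling ATP hydrolysis in its cytosolic V1 sector to proton movement through its membrane V0 sector. Many genes of the organelle are controlled together by TFEB, TFE3 and MITF, basic helix-loop-helix factors of the MiT/TFE family that bind E-box motifs in their promoters. In the myeloid lineage, monocytes and macrophages are rich in lysosomes and cathepsins, which serve digestion of engulfed material and antigen processing.

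Promoter sequence is shown first because the E-box CACGTG, and its extended form TCACGTGA that is typical of lysosomal genes, are the elements these factors are known to bind. RefSeq promoter windows (GRCm38.p6) of 300 bases, from 250 before to 50 after the start, were matched to 38 of the 46 genes. CACGTG was in the window of 13 of the 38 genes (34.2%), compared with 2187 of 27025 genes in the whole table (8.09%). TCACGTGA, which contains the first motif, was in 6 of the 38 (15.8%), compared with 304 of all genes (1.12%). Both motifs read the same on the 2 strands. Those 6 genes were Ctsa, Ctsd, Gla, Atp6v0d1, Atp6v1a and Mcoln1. The stretches of 5 of them around the extended motif are given below in their direction of transcription, with the motif in capitals. They lie at chr7:142387889-142387956 on the minus strand (Ctsd), chrX:134601163-134601255 on the minus strand (Gla), chr16:44139354-44139421 on the minus strand (Atp6v1a), chr8:105566050-105566098 on the minus strand (Atp6v0d1) and chr8:3500443-3500510 on the plus strand (Mcoln1). Gla held 2 copies, 228 and 195 bases before its start. Lamp1, added after its values were seen, held 4 copies of CACGTG between 61 and 15 bases before its start, at chr8:13159070-13159175 on the plus strand, and these are in capitals. A match is a description of the sequence and not evidence that a factor binds there.
Ctsd: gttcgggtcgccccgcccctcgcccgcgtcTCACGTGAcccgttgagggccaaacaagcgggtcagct
Gla: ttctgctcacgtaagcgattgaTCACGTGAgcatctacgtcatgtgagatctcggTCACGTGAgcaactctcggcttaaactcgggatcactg
Atp6v1a: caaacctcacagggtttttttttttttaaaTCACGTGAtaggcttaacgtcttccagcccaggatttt
Atp6v0d1: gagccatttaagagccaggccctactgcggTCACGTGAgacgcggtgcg
Mcoln1: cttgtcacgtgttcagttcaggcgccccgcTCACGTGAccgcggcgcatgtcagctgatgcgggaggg
Lamp1: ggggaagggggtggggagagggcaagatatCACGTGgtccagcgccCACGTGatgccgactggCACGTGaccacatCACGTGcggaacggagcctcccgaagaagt

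Libraries held 12812646 to 18928764 reads in the inhibitor experiment, 21273211 to 34813867 in the knockdown and 17341257 to 19973218 in the overexpression experiment. Levels are given as normalised read counts, and tests were made with limma on the deposited variance-stabilised log2 values, with a call at an adjusted p under 0.05 over all genes tested. A ratio or fold is a ratio of mean normalised counts, whereas a log2 change is a difference on the variance-stabilised scale, which understates the change of genes with few reads. The UNC1999 replicate 3 library had 294 genes at 0 reads, compared with 81 to 175 in the other 20 libraries. Kdm5b had 34.1, 28.8 and 23.2 normalised counts in shKdm5b libraries and 61.6, 94.8 and 67.0 in shEV libraries, a low level in both. It had 1410.0 and 1416 in WT, 309 and 279 in H499A and 114 and 128 in EV libraries, so its reads, from the cells' own gene and the added one together, were far fewer in H499A than in WT libraries. Of the progenitor markers, Ptprc, Kit, Spi1, Cebpa, Mpo, Elane and Ms4a3 were detected in all 21 libraries. The remaining marker, Cd34, is not analysed in the inhibitor experiment. It had 9.56 to 29.6 normalised counts in the knockdown libraries and 3887 to 7105 in the MLL-AF9 libraries. B cell and T and NK cell markers are not analysed here.

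Of the listed genes, 42, 41 and 43 passed the filter on low values in the inhibitor, knockdown and overexpression experiments. Atp6v0d2 was below it in the inhibitor and knockdown experiments, and Cd63 and Hexa were below it in MLL-AF9 cells. Ctsh passed it in MLL-AF9 cells only through the WT libraries, and in the inhibitor experiment through 2 DMSO libraries and 1 UNC1999 library, with every JQEZ5 library below the floor. Its entry therefore depended on the groups in which it is high, so where a compared group lay wholly below the floor its reads are described without a test, and counts of calls are also given without it. Median coefficients of variation of the genes within a group were 1.73% to 3.03% in 7 of the groups and 5.60% in shKdm5b cells. Reads of a gene and of an overlapping gene on the opposite strand cannot be told apart, since the strand setting of the counting is not given in the sources used here. This applies to Ctsa, Ctsb, Ctsl, Ctsz, Lamp1, Hexa, Ppt1, Grn, Atp6v0b, Atp6v1e1, Atp6v1h and Sqstm1. Ctsd and Glb1 overlap another gene of the same strand, and Cd63 and Atp6v0c have annotated pseudogene copies, so their counts are uncertain to that extent.

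Levels between genes are given per length, as RPKM, the reads per kb of exon scaled to the reads of the library. Prosaposin, cathepsin D and Lamp1 were the most abundant of these transcripts in the inhibitor experiment. Psap, the precursor of the saposins that help sphingolipid enzymes reach their substrates, had 2491 RPKM with UNC1999, 2047 with JQEZ5 and 1972 in DMSO cells. Ctsd, an aspartic protease, had 1797 with UNC1999, 1425 with JQEZ5 and 996 in DMSO cells. Lamp1, a heavily glycosylated protein that lines the lysosomal membrane, had 762 with UNC1999, 716 with JQEZ5 and 697 in DMSO cells. The order differed elsewhere, with Lamp1 first among shEV levels at 499.7 and Ctsz first among EV levels at 285 RPKM. At the low end, Tfeb had 7.85 and Mitf 10.7 in DMSO cells, and Atp6v0d2 had 0.0355. The 3 tables were normalised separately, so levels set across them carry no test.

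The listed genes together took 2.64% of all reads with UNC1999, 2.18% with JQEZ5 and 1.91% in DMSO cells. In the knockdown they took 0.956% in shKdm5b cells and 1.01% in shEV cells. In MLL-AF9 cells the shares were 0.924% with WT, 0.806% with H499A and 0.566% with EV. The ranges of the 3 inhibitor groups did not overlap, nor did those of the 3 MLL-AF9 groups. Cathepsins alone took 0.992% with UNC1999, 0.764% with JQEZ5 and 0.559% in DMSO cells. In bulk RNA, a change in the number of cells that express a gene cannot be told apart from a change in its RNA per cell.

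**Figure D1:**
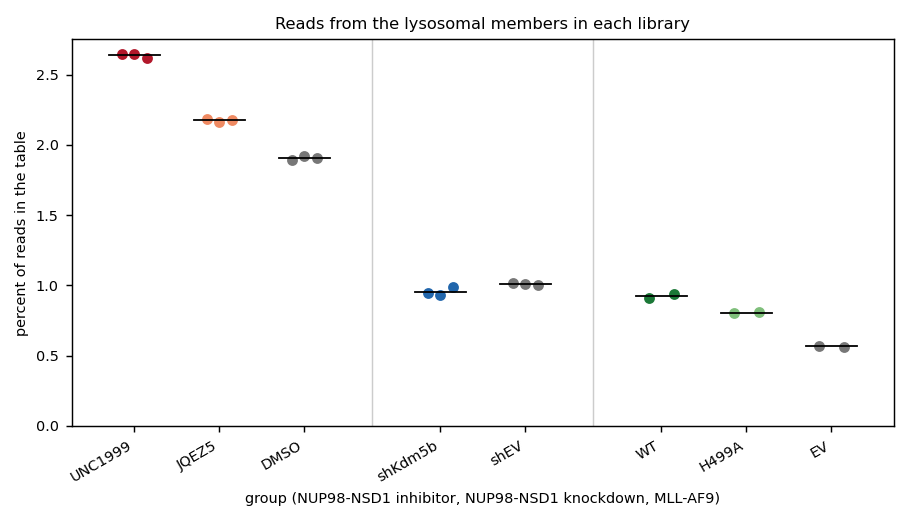
Percent of all reads that came from the listed lysosomal genes (vertical axis, from 0) in each of the 21 libraries (points), by group, with a line at the group mean. The UNC1999 libraries lay at 2.62% to 2.65% and the DMSO libraries at 1.89% to 1.92%, and the WT libraries lay at 0.912% to 0.937%, against 0.560% to 0.573% for EV.

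The comparison of UNC1999 with DMSO asks how lysosomal genes respond when PRC2 is inhibited. With UNC1999, 35 of the 42 tested genes rose and 2 fell, whereas 23.9% of the 10694 genes tested rose and 24% fell. The median log2 change was 0.31 over the listed genes and -0.01 over all genes tested. Cathepsins rose most, with Ctss, Ctsl and Ctsb more than 2-fold higher, as were the glycan hydrolases Gla and Naglu. The UNC1999 libraries lay wholly above the DMSO libraries for 34 of the 42 genes, compared with 26.9% of all genes tested. Without UNC1999 replicate 3, 36 genes rose and 2 fell.

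Of 8 cathepsins tested, 6 rose and 1 fell. Ctss, a cysteine protease of antigen-presenting cells that trims the invariant chain of MHC class II, lies at chr3:95526786-95556403 (GRCm38). It had 4670.5, 4699.5 and 4488 normalised counts in UNC1999 libraries, against 1623, 1631 and 1601 in DMSO libraries. All UNC1999 values lay far above the DMSO values (2.85-fold, log2 change 1.39, SE 0.03, limma adjusted p = 8.28e-15). Ctsl, another cysteine protease of the same family (chr13:64359337-64370890), had 18536, 18212 and 17960.1 normalised counts in UNC1999 libraries, against 7775, 7553 and 7701 in DMSO libraries. It rose without overlap between the groups (2.38-fold, log2 change 1.22, SE 0.03, limma adjusted p = 2.86e-15). Ctsb, a cysteine protease with both endopeptidase and dipeptidase activity, had 32509, 32855 and 32432 normalised counts in UNC1999 libraries, against 13899.8, 14097 and 14168 in DMSO libraries, again with a wide gap between the groups (2.32-fold, limma adjusted p = 1.63e-15). Ctsd rose 1.88-fold, Ctsz 1.48-fold and Ctsa, the carboxypeptidase that protects lysosomal sialidase and galactosidase, 1.43-fold. Ctsc, the dipeptidyl peptidase that activates serine proteases of myeloid granules, fell to 0.926 times the DMSO level (limma adjusted p = 0.0206). The call for Ctsc was lost without DMSO replicate 1, DMSO replicate 2 or UNC1999 replicate 2. Ctsh, an aminopeptidase with few reads, did not pass the test (limma adjusted p = 0.927).

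Among membrane proteins, 3 of 4 rose. Lamp2, a membrane glycoprotein needed for fusion with autophagosomes, had 10275, 10690.4 and 10929 normalised counts in UNC1999 libraries, against 9138, 9139.6 and 9362 in DMSO libraries. Its lowest UNC1999 value was above every DMSO value (1.15-fold, log2 change 0.20, SE 0.03, limma adjusted p = 0.000122). Mcoln1, the channel that releases calcium from the lysosome, had 920.5, 897 and 786 normalised counts in UNC1999 libraries, against 730.3, 717 and 748 in DMSO libraries, with the groups apart but the third UNC1999 library close to DMSO (1.19-fold, log2 change 0.19, SE 0.05, limma adjusted p = 0.00588). Lamp1 rose 1.14-fold. Scarb2, the membrane receptor that carries glucocerebrosidase to the lysosome, missed the threshold (limma adjusted p = 0.0545).

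Of 8 glycan hydrolases, 7 rose and 1 fell. Gla, the alpha-galactosidase deficient in Fabry disease, had 1239, 1273 and 1323 normalised counts in UNC1999 libraries, against 613, 642 and 633 in DMSO libraries. Every UNC1999 library was near 2-fold above DMSO (2.03-fold, log2 change 0.83, SE 0.04, limma adjusted p = 2.46e-10). Naglu, which removes N-acetylglucosamine from heparan sulfate, had 1086, 1044 and 1015 normalised counts in UNC1999 libraries, against 507, 555 and 497 in DMSO libraries and also rose (2.02-fold, log2 change 0.79, SE 0.04, limma adjusted p = 8.75e-10). Glb1, the beta-galactosidase, rose 1.34-fold, Gusb, the beta-glucuronidase, 1.25-fold, and Gaa, which digests glycogen, 1.23-fold. Galns, a sulfatase of keratan sulfate breakdown, fell to 0.871 times its DMSO level (limma adjusted p = 0.000830).

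In the group of sphingolipid enzymes and soluble lysosomal proteins, 5 of 6 rose. Grn, the secreted and lysosomal protein progranulin (chr11:102430315-102437048), had 14159, 14333 and 13878 normalised counts in UNC1999 libraries, against 9727, 9946 and 9775 in DMSO libraries. It was higher in each UNC1999 library (1.44-fold, log2 change 0.51, SE 0.03, limma adjusted p = 2.84e-10). Tpp1, a tripeptidyl peptidase, had 6032, 6136 and 6319 normalised counts in UNC1999 libraries, against 4291, 4270.3 and 4389 in DMSO libraries and rose (1.43-fold, log2 change 0.49, SE 0.03, limma adjusted p = 1.32e-09). Asah1, acid ceramidase, rose 1.35-fold, and Ppt1, which strips fatty acids from proteins, rose 1.10-fold. The Ppt1 call was lost without DMSO replicate 1 or 2, without UNC1999 replicate 2 and under quantile normalisation. Psap rose 1.32-fold, but under quantile normalisation its log2 change was -0.01 and no longer passed. Smpd1, acid sphingomyelinase, did not pass (limma adjusted p = 0.922).

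Mitf was the one MiT/TFE factor with a large change. It had 1727, 1612 and 1779 normalised counts in UNC1999 libraries, against 852, 806 and 935 in DMSO libraries, which set all UNC1999 libraries well above DMSO (1.97-fold, log2 change 0.83, SE 0.05, limma adjusted p = 7.47e-10). Tfe3 had 1737, 1819 and 1632 normalised counts in UNC1999 libraries, against 1564, 1578 and 1645 in DMSO libraries, with overlapping groups (1.08-fold, log2 change 0.10, SE 0.04, limma adjusted p = 0.0456), and this call was lost without DMSO replicate 1 or 2, without UNC1999 replicate 1 or 2 and under several other settings. Tfeb had 525, 462 and 473 normalised counts in UNC1999 libraries, against 474, 479 and 479.6 in DMSO libraries, and its change was near 0 (0.02, 95% interval -0.09 to 0.13, limma adjusted p = 0.798). Sqstm1, the receptor that delivers ubiquitinated cargo to autophagosomes, had 6019, 5987 and 6061 normalised counts in UNC1999 libraries, against 4027, 4407 and 4208 in DMSO libraries. It rose in all UNC1999 libraries (1.43-fold, log2 change 0.49, SE 0.03, limma adjusted p = 1.16e-08).

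Of the 12 tested proton pump subunits and accessory proteins, 11 rose with UNC1999, with a median log2 change of 0.30. Atp6v0c, a proteolipid of the proton-carrying ring, had 8241, 8360.0 and 7996 normalised counts in UNC1999 libraries, against 5575, 5927 and 5946 in DMSO libraries, wholly apart (1.41-fold, log2 change 0.48, SE 0.03, limma adjusted p = 6.74e-09). Atp6v0b, another ring proteolipid, had 3053, 2913 and 3079 normalised counts in UNC1999 libraries, against 2351, 2398 and 2431 in DMSO libraries and also rose (1.26-fold, log2 change 0.31, SE 0.03, limma adjusted p = 8.71e-07). In the V1 sector, Atp6v1c1, a stator subunit that joins the sectors, changed most. It had 3213, 3207 and 3296 normalised counts in UNC1999 libraries, against 1943, 2028 and 2051 in DMSO libraries, each UNC1999 value being above each DMSO value by more than 1000 counts (1.61-fold, log2 change 0.63, SE 0.03, limma adjusted p = 1.98e-10). Atp6v1a, the catalytic subunit, had 7625, 7538 and 8139 normalised counts in UNC1999 libraries, against 5860.3, 5598 and 5788 in DMSO libraries (1.35-fold, log2 change 0.42, SE 0.03, limma adjusted p = 7.32e-08). The accessory protein Atp6ap1 had 5135, 5132 and 5070.3 normalised counts in UNC1999 libraries, against 4106, 3945 and 4064 in DMSO libraries, a clear separation (1.27-fold, log2 change 0.32, SE 0.03, limma adjusted p = 1.12e-07). Its partner Atp6ap2 had 2834, 2980.1 and 2774 normalised counts in UNC1999 libraries, against 2628, 2445 and 2521 in DMSO libraries and rose less (1.13-fold, log2 change 0.16, SE 0.04, limma adjusted p = 0.00365). Atp6v1h, a regulatory V1 subunit, did not pass (limma adjusted p = 0.337). Atp6v0d2, an isoform of the V0 stalk known from osteoclasts and macrophages (chr4:19876841-19922605), was too low to test. It had 23.0, 31.7 and 12.3 normalised counts in UNC1999 libraries, 17.2, 20.4 and 11.9 in JQEZ5 libraries and 0.987, 1.11 and 1.998 in DMSO libraries. In reads, it had 66 reads over the UNC1999 libraries and 4 over the DMSO libraries, a depth-scaled ratio of 16.7 (95% interval 6.21 to 63.0). Intervals of such ratios cover counting error only.

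**Figure D2:**
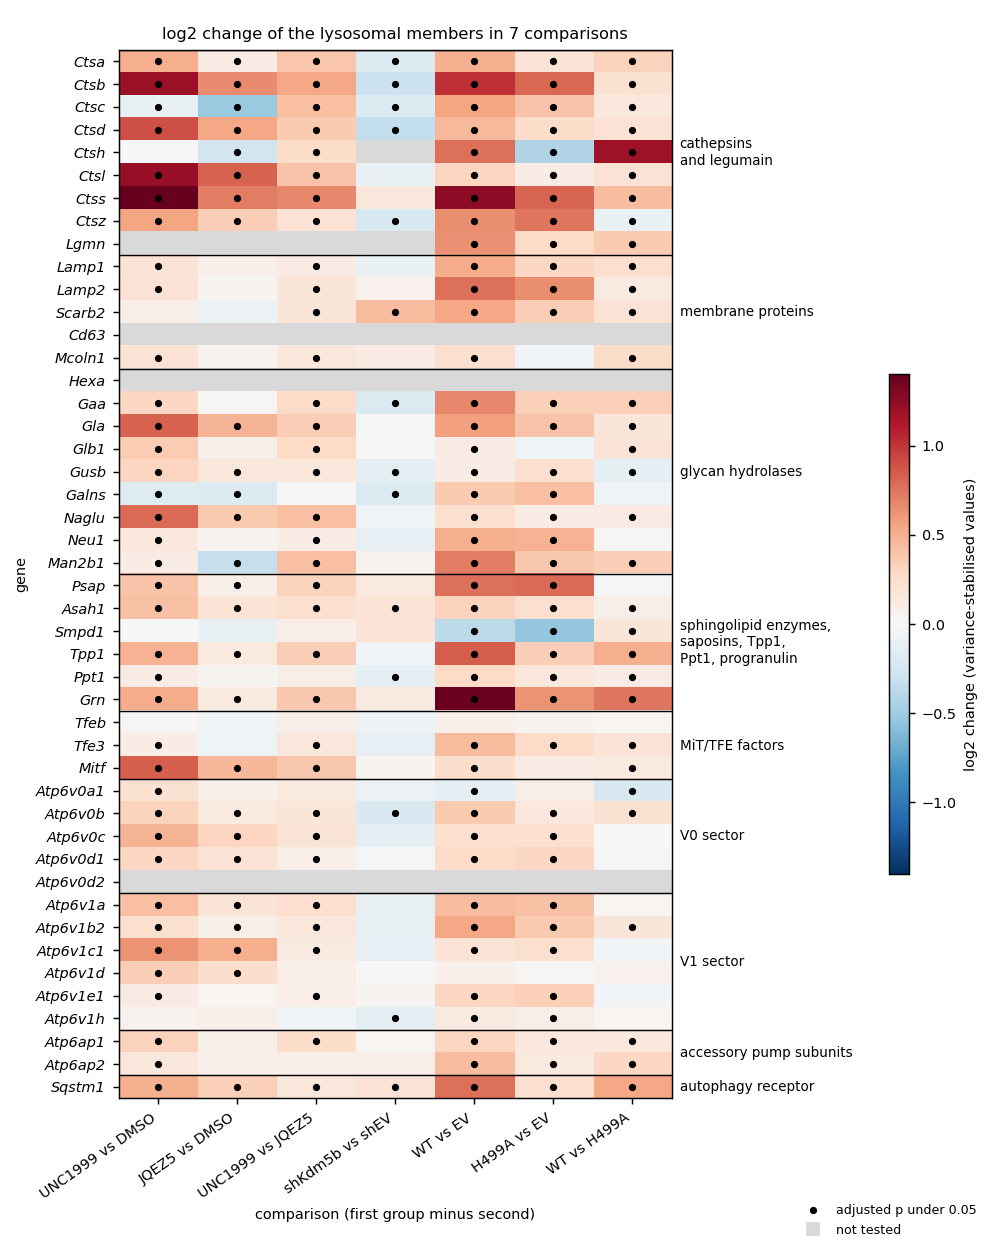
Heat map of the log2 change (colour, variance-stabilised scale) of the 46 listed genes (rows, by role) in 7 comparisons (columns). A dot marks a limma adjusted p under 0.05 and grey a gene that was not tested: 35 genes rose with UNC1999 and 39, Ctsh included, with WT Kdm5b, whereas 11 fell with shKdm5b.

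Markers of monocytes and macrophages moved with these genes. The 14 measured of 15 such markers, none of which is a listed lysosomal gene, summed to 270421 to 284110 normalised counts in UNC1999 libraries, against 100549 to 102301 in DMSO libraries, and 13 of 14 rose. Cd68, a lysosomal glycoprotein of macrophages, rose 3.68-fold. The 7 measured of 9 neutrophil markers summed to 9378 to 9839 with UNC1999 and 2935 to 3003 in DMSO cells. Mmp8 made up most of the sum, with 7824, 7889 and 7492 with UNC1999 and 1921, 1948 and 1918 in DMSO cells. Of 5 neutrophil markers tested, 4 rose and 1 fell. The last was Cxcr2, a chemokine receptor of neutrophils, with 181 normalised counts with UNC1999 and 797 in DMSO cells (means). S100a9 and Mmp9, among the 4 that rose, were below the filter in every DMSO library. S100a9 had 409, 406 and 416 normalised counts with UNC1999 and 6.91, 22.3 and 15.0 in DMSO cells. Mmp9 had 184, 213 and 135 with UNC1999 and 55.3, 49.0 and 54.0 in DMSO cells. Both were tested only through libraries in which they are high. Their calls are in these counts but are not a valid test. Progenitor markers, 7 of 8 measured, summed to 81569 to 84383 in UNC1999 libraries, against 101693 to 106441 in DMSO libraries, with 1 of 7 higher and 3 lower. The lower sum came mainly from Mpo, with 47010, 45681 and 44570 with UNC1999 and 66065, 70107 and 69003 in DMSO cells. No measured monocyte marker was at 0 in all libraries of these groups. The part of these cell types in the lysosomal changes was not tested.

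JQEZ5 is another PRC2 inhibitor, also used at 3 µM over 4 days, and its libraries were set against the same DMSO libraries. With JQEZ5, 22 of the 42 tested genes rose and 4 fell, whereas 13.1% of all genes tested rose and 10.5% fell. Without Ctsh the counts were 22 higher and 3 lower of 41. The median log2 change was 0.09, compared with 0.01 over all genes tested. JQEZ5 libraries lay wholly above DMSO for 26 of the 42 genes, compared with 22.1% of all genes tested, and wholly below it for 6, Ctsh included, compared with 19.5%. Cathepsins and Mitf again stood among the largest changes, and most glycan hydrolases and membrane proteins did not rise.

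Of the 7 cathepsins other than Ctsh, 6 rose and 1 fell with JQEZ5. Ctsl had 13676, 13803 and 13950.3 normalised counts in JQEZ5 libraries, against 7775, 7553 and 7701 in DMSO libraries. All JQEZ5 libraries lay above DMSO (1.80-fold, log2 change 0.83, SE 0.03, limma adjusted p = 1.64e-12). Ctss rose 1.73-fold, Ctsb 1.59-fold and Ctsd 1.46-fold. Ctsc had 1689, 1809 and 1783 normalised counts in JQEZ5 libraries, against 2688, 2629 and 2547 in DMSO libraries. Every JQEZ5 value was below every DMSO value (0.671 times, log2 change -0.52, SE 0.03, limma adjusted p = 1.48e-08). Ctsh had 33.6, 37.1 and 23.8 normalised counts in JQEZ5 libraries, against 62.2, 51.2 and 66.0 in DMSO libraries, with every JQEZ5 library lower. In reads, it had 105 over the JQEZ5 libraries and 175 over the DMSO libraries, a depth-scaled ratio of 0.529 (95% interval 0.411 to 0.677).

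No membrane protein passed the test with JQEZ5 by limma, although Lamp1 and Scarb2 had an unadjusted p under 0.05. Lamp2 had a log2 change of 0.04 (95% interval -0.03 to 0.11) and Mcoln1 of 0.05 (-0.06 to 0.16, limma adjusted p = 0.554). The JQEZ5 libraries held 804, 708 and 783 normalised counts of Mcoln1, which overlap the DMSO values above. Among 8 glycan hydrolases, 3 rose and 2 fell. Gla had 896, 1006 and 973 normalised counts in JQEZ5 libraries, against 613, 642 and 633 in DMSO libraries, with no overlap (1.52-fold, log2 change 0.48, SE 0.04, limma adjusted p = 6.20e-07). Man2b1, a lysosomal alpha-mannosidase, fell with JQEZ5 and rose slightly with UNC1999. It had 7445, 7436 and 7672 normalised counts with UNC1999, 5523, 5498 and 5672 with JQEZ5 and 6902, 7049.6 and 7034 in DMSO cells. The fall with JQEZ5 was clear (0.795 times, log2 change -0.32, SE 0.03, limma adjusted p = 3.64e-07), and the rise with UNC1999 was small (1.07-fold, limma adjusted p = 0.00597) and lost under quantile normalisation. Galns fell to 0.856 times its DMSO level (limma adjusted p = 0.000850).

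Asah1 led the sphingolipid group, in which 4 of 6 rose with JQEZ5. It had 3616, 3729.8 and 3584 normalised counts in JQEZ5 libraries, against 3087, 3153 and 3267 in DMSO libraries, the groups being apart (1.15-fold, log2 change 0.19, SE 0.03, limma adjusted p = 0.000274). Psap rose 1.06-fold, but its log2 change was -0.05 under quantile normalisation and no longer passed. Mitf had 1235, 1312 and 1255 normalised counts in JQEZ5 libraries, against 852, 806 and 935 in DMSO libraries, a rise in each library (1.47-fold, log2 change 0.46, SE 0.05, limma adjusted p = 2.68e-06). Tfe3 (limma adjusted p = 0.294) and Tfeb (limma adjusted p = 0.416) did not pass. The JQEZ5 libraries held 1570.2, 1506 and 1481 normalised counts of Tfe3 and 487, 407 and 452 of Tfeb. Sqstm1 had 5615, 5229 and 5322 normalised counts in JQEZ5 libraries, against 4027, 4407 and 4208 in DMSO libraries, without overlap (1.28-fold, log2 change 0.34, SE 0.03, limma adjusted p = 2.97e-06).

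Of the 12 pump genes, 7 rose with JQEZ5. Atp6v0c had 7292, 6989 and 7371 normalised counts in JQEZ5 libraries, against 5575, 5927 and 5946 in DMSO libraries, again apart (1.24-fold, log2 change 0.30, SE 0.03, limma adjusted p = 4.66e-06). Atp6v1c1 had 2917, 3037 and 2908 normalised counts in JQEZ5 libraries, against 1943, 2028 and 2051 in DMSO libraries and had the largest pump change (1.47-fold, log2 change 0.51, SE 0.03, limma adjusted p = 1.12e-08). The accessory proteins Atp6ap1 (limma adjusted p = 0.0723) and Atp6ap2 (limma adjusted p = 0.230) did not pass. Atp6v0d2 had 55 reads with JQEZ5 and 4 in DMSO cells, a depth-scaled ratio of 12.1 (95% interval 4.47 to 46.04). Monocyte and macrophage markers summed to 189277 to 190793 normalised counts in JQEZ5 libraries, against 100549 to 102301 in DMSO libraries, with 11 of 14 higher and 2 lower. Neutrophil markers summed to 4070.2 to 4351 in JQEZ5 libraries, against 2935 to 3003 in DMSO libraries, with 3 of 5 tested higher and 1, Cxcr2, lower. Mmp8 made up most of that sum. S100a9, 1 of the 3, had 146, 169 and 133 normalised counts in JQEZ5 libraries, with every DMSO library below the filter. Mmp9 was below it in every JQEZ5 and DMSO library. The results for S100a9 and Mmp9 are in these counts but are not a valid test. The part of the monocyte and neutrophil markers in the result was not tested.

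**Figure D3:**
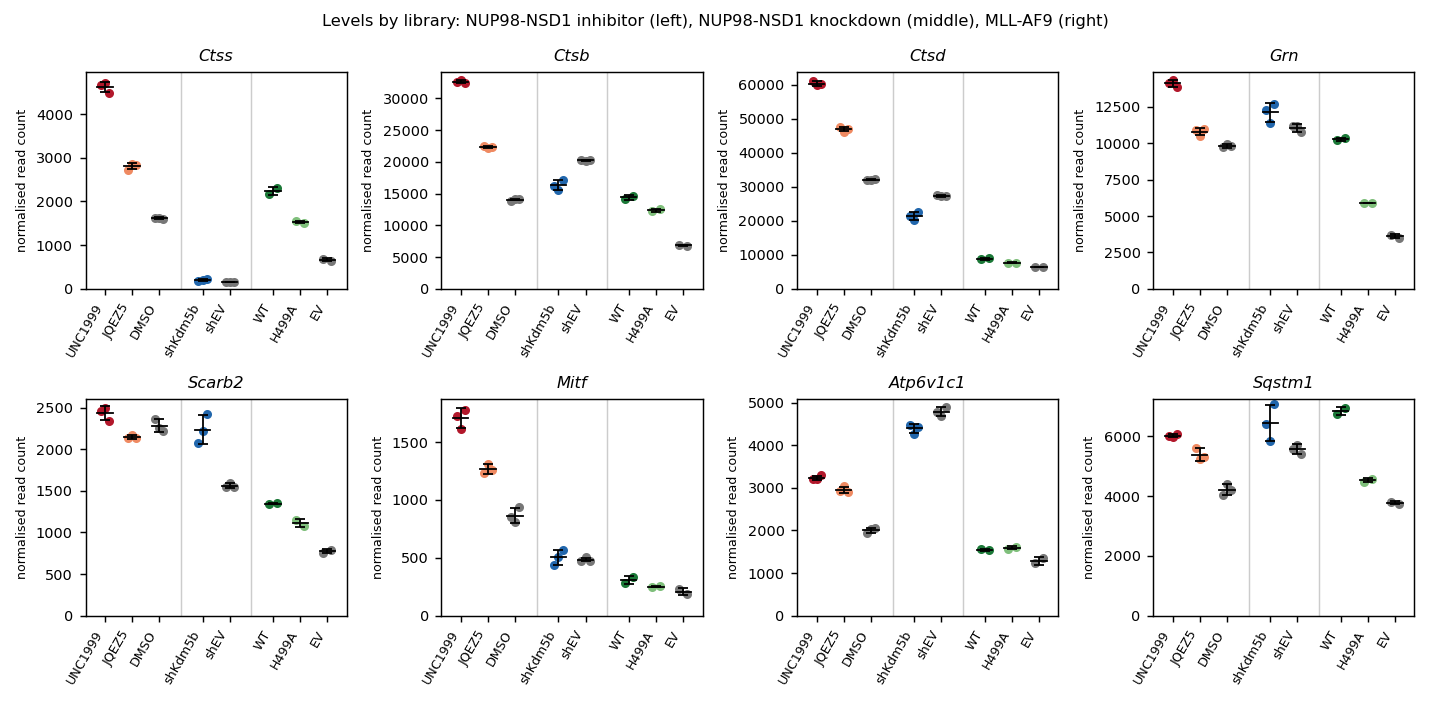
Normalised read counts (vertical axes) of Ctss, Ctsb, Ctsd, Grn, Scarb2, Mitf, Atp6v1c1 and Sqstm1 in every library (points) of the 8 groups, with the group mean and SD. Grey lines separate the 3 experiments, which were normalised separately: Ctss and Mitf stepped down in the order UNC1999, JQEZ5, DMSO, and Scarb2 was higher in shKdm5b cells than in shEV cells.

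The 2 inhibitors, matched in dose and duration, were compared directly over 42 tested genes, with p-values adjusted over all genes of the table. In this contrast 34 genes were higher with UNC1999 than with JQEZ5, whereas 18.7% of all genes tested were higher and 17.7% lower. None was lower with UNC1999 by limma, none at an unadjusted p under 0.05, and none by the voom fit. The UNC1999 libraries lay wholly above the JQEZ5 libraries for 33 genes, Ctsh included, compared with 23.1% of all genes tested. The median log2 difference was 0.18 over the listed genes, compared with -0.001 over all genes tested. Without Ctsh, 33 of 41 genes were higher. Without UNC1999 replicate 3 the count was again 34, with Atp6v0a1 called and Ctsh no longer called.

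On the variance-stabilised scale Ctss had the largest difference, 4670.5, 4699.5 and 4488 normalised counts in UNC1999 libraries, against 2723, 2850.5 and 2833 in JQEZ5 libraries (1.65-fold, log2 change 0.68, SE 0.03, limma adjusted p = 4.90e-10). Ctsc, lower with JQEZ5, differed 1.379-fold and Ctsb 1.46-fold, and the 7 cathepsins other than Ctsh were all higher with UNC1999. Ctsh had 52.4, 43.9 and 82.2 normalised counts in UNC1999 libraries, against 33.6, 37.1 and 23.8 in JQEZ5 libraries, too few reads in JQEZ5 libraries to pass the filter there, and its depth-scaled read ratio was 1.82 (95% interval 1.42 to 2.35). All 4 membrane proteins were higher too. Scarb2 had 2457, 2499.9 and 2338 normalised counts in UNC1999 libraries, against 2133, 2168 and 2131 in JQEZ5 libraries, with a narrow gap (1.13-fold, log2 change 0.17, SE 0.03, limma adjusted p = 0.00151). Mcoln1 differed 1.13-fold with overlapping libraries (limma adjusted p = 0.0383), a call lost without any 1 of several libraries, among them JQEZ5 replicate 2 and UNC1999 replicate 1 or 2. Among glycan hydrolases, Naglu had 1086, 1044 and 1015 normalised counts in UNC1999 libraries, against 763, 689.9 and 727 in JQEZ5 libraries and differed most (1.44-fold, log2 change 0.43, SE 0.04, limma adjusted p = 3.35e-06). Man2b1 differed 1.35-fold and Gla 1.33-fold.

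Grn had 14159, 14333 and 13878 normalised counts in UNC1999 libraries, against 10884, 10496 and 10971 in JQEZ5 libraries. The 3 UNC1999 libraries lay above all JQEZ5 libraries (1.31-fold, log2 change 0.38, SE 0.03, limma adjusted p = 4.23e-08). Mitf had 1727, 1612 and 1779 normalised counts in UNC1999 libraries, against 1235, 1312 and 1255 in JQEZ5 libraries, also apart (1.35-fold, log2 change 0.37, SE 0.05, limma adjusted p = 1.86e-05). Tfe3 differed 1.14-fold (limma adjusted p = 0.00435), and Sqstm1 had 6019, 5987 and 6061 normalised counts in UNC1999 libraries, against 5615, 5229 and 5322 in JQEZ5 libraries (1.12-fold, log2 change 0.15, SE 0.03, limma adjusted p = 0.00263). In the pump, 8 of 12 genes were higher with UNC1999, by small amounts. Atp6v0c had 8241, 8360.0 and 7996 normalised counts in UNC1999 libraries, against 7292, 6989 and 7371 in JQEZ5 libraries (1.14-fold, log2 change 0.18, SE 0.03, limma adjusted p = 0.000487). Atp6v1a had 7625, 7538 and 8139 normalised counts in UNC1999 libraries, against 6408, 6825 and 6479.9 in JQEZ5 libraries (1.18-fold, log2 change 0.23, SE 0.03, limma adjusted p = 8.50e-05), and Atp6ap1 had 5135, 5132 and 5070.3 normalised counts in UNC1999 libraries, against 4313, 4213 and 4244 in JQEZ5 libraries (1.20-fold, log2 change 0.25, SE 0.03, limma adjusted p = 4.94e-06). These 3 pump genes had no overlap between the inhibitors. Atp6v0d2 had 66 reads with UNC1999 and 55 with JQEZ5, a ratio of 1.375 (95% interval 0.947 to 2.004) that includes 1. The calls for Lamp1, Neu1, Psap, Atp6v0d1 and Atp6v1e1 were also lost under at least 1 alternative.

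For 8 genes no difference between the inhibitors passed, and the intervals show what size remains possible. The log2 difference was 0.02 for Galns (95% interval -0.06 to 0.10), 0.08 for Tfeb (-0.03 to 0.19) and -0.03 for Atp6v1h (-0.12 to 0.06). It was 0.10 for Smpd1 (-0.01 to 0.21), 0.08 for Ppt1 (-0.002 to 0.17) and 0.09 for Atp6v1d, a central stalk subunit (-0.01 to 0.19). It was 0.14 for Atp6v0a1, the V0 subunit with the proton half-channels (0.02 to 0.26), and 0.09 for Atp6ap2 (0.005 to 0.18). Side by side against the shared DMSO libraries, 22 genes rose with both inhibitors, 12 passed as higher with UNC1999 and not with JQEZ5, 2 (Ctsc and Galns) fell with both, and 4 passed with neither. Of the other two, Man2b1 rose with UNC1999 and fell with JQEZ5, and Ctsh did not pass with UNC1999 and was lower in every JQEZ5 library.

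**Figure D4:**
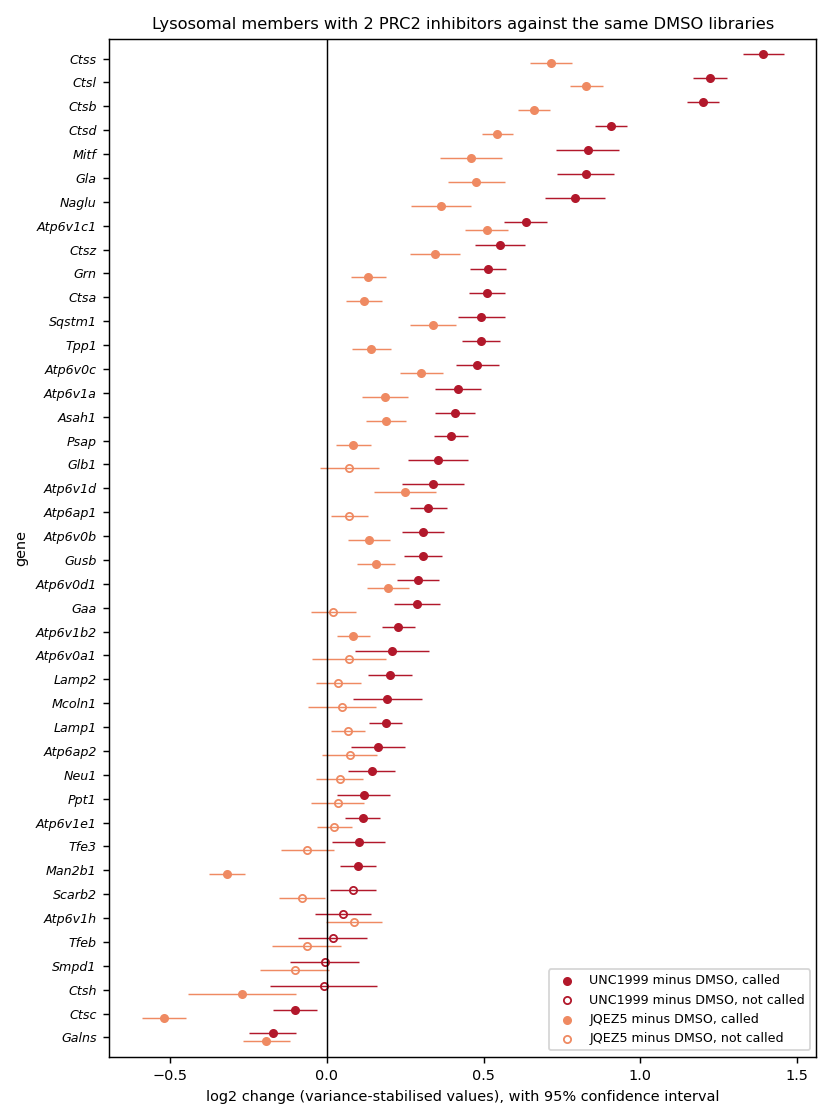
Log2 change from DMSO (horizontal axis, variance-stabilised scale, with 95% interval) of 42 listed genes (rows, ordered by the change with UNC1999) for UNC1999 and for JQEZ5, which share the DMSO libraries. Filled points passed a limma adjusted p under 0.05: the point for UNC1999 lies to the right of that for JQEZ5 for 41 of the 42 genes, and Man2b1 lies on opposite sides of 0. For 7 genes, among them Ctsc and Man2b1, the change was larger in size with JQEZ5.

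In the knockdown of Kdm5b in NUP98-NSD1 cells, more of the listed genes fell than rose. With shKdm5b, 11 of the 41 tested genes fell and 3 rose, whereas 17.4% of the 10810 genes tested fell and 15% rose. The median log2 change was -0.07, compared with -0.01 over all genes tested. The shKdm5b libraries lay wholly below shEV for 19 genes and above for 9, compared with 26.5% and 22.5% of all genes tested. Ctsd and Ctsb fell most and Scarb2 rose most. Of the calls, 21.4% were upward, compared with 42.9% under median centring (6 higher and 8 lower) and 36.4% under quantile normalisation (4 higher and 7 lower). The counts depended on single libraries. Without shEV replicate 1, 2 or 3 there were 2, 4 or 3 genes that fell, and without shKdm5b replicate 2 there were 7. Without shEV replicate 1 or without shEV replicate 2 there was 1 gene that rose, and without shKdm5b replicate 1 or 2 there were 8 or 5. Scarb2, Ctsb and Ctsd passed under every alternative tried.

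Of 7 cathepsins tested, 5 fell. Ctsd had 21445, 20143 and 22603 normalised counts in shKdm5b libraries, against 27521, 27164 and 27192 in shEV libraries. All shKdm5b libraries were below all shEV libraries, with a wider spread in shKdm5b (0.784 times, log2 change -0.35, SE 0.05, limma adjusted p = 0.00136). Ctsb had 16271, 15626 and 17212 normalised counts in shKdm5b libraries, against 20274, 20176 and 20251 in shEV libraries, also without overlap (0.809 times, log2 change -0.30, SE 0.05, limma adjusted p = 0.00182). Ctsa fell to 0.874 times the shEV level, Ctsz to 0.858 times and Ctsc to 0.862 times. Ctss had few reads in both groups, with 172, 194 and 217 normalised counts in shKdm5b libraries, against 151, 148 and 166 in shEV libraries, and did not pass (limma adjusted p = 0.0614). Ctsl did not pass either (0.934 times, limma adjusted p = 0.103).

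Scarb2 (chr5:92441314-92506833) was the membrane protein that rose. It had 2073, 2214 and 2418 normalised counts in shKdm5b libraries, against 1551, 1598 and 1542 in shEV libraries, the groups being far apart (1.43-fold, log2 change 0.44, SE 0.05, limma adjusted p = 0.000482). Mcoln1 had 872, 918 and 1091 normalised counts in shKdm5b libraries, against 859.5, 844 and 874 in shEV libraries, overlapping, and did not pass (limma adjusted p = 0.186). Of 8 glycan hydrolases, 3 fell. Gaa had 5434, 4797 and 5432 normalised counts in shKdm5b libraries, against 6041, 6228 and 5814 in shEV libraries, below shEV in each library (0.866 times, log2 change -0.20, SE 0.06, limma adjusted p = 0.0256). Galns had 2284, 2222 and 2147 normalised counts in shKdm5b libraries, against 2620.2, 2535 and 2576 in shEV libraries, likewise below (0.861 times, log2 change -0.19, SE 0.04, limma adjusted p = 0.00755). Gusb fell to 0.909 times the shEV level (limma adjusted p = 0.0303).

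In the sphingolipid group 1 of 6 genes rose and 1 fell (16.7% each), near the 15% and 17.4% of all genes tested. Asah1 had 3609.7, 3931 and 3990.4 normalised counts in shKdm5b libraries, against 3274, 3272 and 3381 in shEV libraries and rose (1.16-fold, log2 change 0.20, SE 0.05, limma adjusted p = 0.0126). Ppt1 had 2229, 2249 and 2096 normalised counts in shKdm5b libraries, against 2426, 2413 and 2513 in shEV libraries and fell (0.894 times, log2 change -0.14, SE 0.04, limma adjusted p = 0.0319). Psap was 1.10 times its shEV level (limma adjusted p = 0.050004) and Grn 1.10-fold (limma adjusted p = 0.0791), and neither passed. No MiT/TFE factor passed by limma, with Tfe3 alone at an unadjusted p under 0.05. Tfeb had 576, 483 and 526 normalised counts in shKdm5b libraries, against 628, 543 and 529 in shEV libraries, an overlap (limma adjusted p = 0.439). Tfe3 had 1830.4, 1936 and 2094 normalised counts in shKdm5b libraries, against 2153, 2157 and 2124 in shEV libraries, all lower but with limma adjusted p = 0.0952. Mitf had 438, 509 and 569 normalised counts in shKdm5b libraries, against 476, 504 and 475 in shEV libraries (limma adjusted p = 0.694), again overlapping. Sqstm1 rose with 6401, 5857 and 7081 normalised counts in shKdm5b libraries, against 5577, 5722 and 5389.7 in shEV libraries (1.16-fold, log2 change 0.20, SE 0.06, limma adjusted p = 0.0435).

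In the pump 2 of 12 genes fell (16.7%), near the 17.4% of all genes tested. Atp6v0b had 5583, 4727 and 4430.0 normalised counts in shKdm5b libraries, against 5848, 5605 and 5772 in shEV libraries, and the first shKdm5b library lay close to the shEV libraries (0.856 times, log2 change -0.22, SE 0.07, limma adjusted p = 0.0498). Atp6v1h had 4216, 4418 and 4266 normalised counts in shKdm5b libraries, against 4744, 4696 and 4763 in shEV libraries, all lower (0.908 times, log2 change -0.13, SE 0.04, limma adjusted p = 0.0317). Both calls were lost under median centring, where the limma adjusted p was 0.0625 for Atp6v0b and 0.0549 for Atp6v1h. Atp6v0d2, with 3.01, 3.08 and 5.46 normalised counts in shKdm5b libraries, against 1.74, 1.69 and 0.944 in shEV libraries, had 10 reads over the shKdm5b libraries and 5 over the shEV libraries, a ratio of 2.51 (95% interval 0.782 to 9.36) that includes 1. Monocyte and macrophage markers were mixed here, with 5 of 14 tested higher and 7 lower, and summed to 36742 to 41669 in shKdm5b and 36424 to 37676 in shEV libraries, with Cd36 at 0 in all shEV libraries. Neutrophil markers, 6 of 9 measured, summed to 1488 to 1628 in shKdm5b libraries, against 767 to 890.3 in shEV libraries. Basophil and mast cell markers, 2 of 6 measured, summed to 2499 to 2839.6 normalised counts in shKdm5b libraries, against 85.1 to 102 in shEV libraries. The difference came from 1 gene, Mcpt8, with 2648, 2467 and 2816 in shKdm5b and 61.6, 77.9 and 76.5 in shEV libraries. Ms4a2 had 31.1, 31.9 and 23.2 against 23.4, 24.5 and 17.9, an overlap. The part of these cell types in the result was not tested.

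Overexpression of Kdm5b in MLL-AF9 cells asks what added Kdm5b does, and the H499A mutant asks how much of it needs the demethylase activity. With WT, 39 of the 43 tested genes rose and 2 fell, whereas 29.8% of the 9458 genes tested rose and 32.4% fell. Without Ctsh, 38 of 42 rose and 2 fell. The median log2 change was 0.43 without it, compared with -0.01 over all genes tested. WT libraries lay wholly above EV for 40 of the 42 genes other than Ctsh, compared with 38.1% of all genes tested. On the variance-stabilised scale progranulin and cathepsin S rose most, and as a ratio of counts Ctsh, with few reads in EV cells, was higher still.

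The 8 cathepsins other than Ctsh, legumain included, rose with WT. Ctss had 2165.9 and 2305 normalised counts in WT libraries, against 685 and 642 in EV libraries, a gap of more than 3-fold (3.37-fold, log2 change 1.25, SE 0.03, limma adjusted p = 2.82e-21). Ctsb rose 2.11-fold and Lgmn, an asparaginyl endopeptidase that processes cathepsins, 2.44-fold. Ctsh had 233 and 239.8 normalised counts in WT libraries, against 40.4 and 28.1 in EV libraries, both WT libraries being high and both EV libraries below the floor of 145. In reads, it had 466 with WT and 67 with EV, a depth-scaled ratio of 6.85 (95% interval 5.30 to 8.99). All 4 tested membrane proteins rose. Lamp2 had 8817 and 8578 normalised counts in WT libraries, against 5026 and 4679 in EV libraries (1.79-fold, log2 change 0.78, SE 0.03, limma adjusted p = 9.45e-19). Mcoln1 had 502 and 498 normalised counts in WT libraries, against 363 and 382 in EV libraries, apart but by a small margin (1.34-fold, log2 change 0.22, SE 0.04, limma adjusted p = 5.17e-05). Scarb2 rose 1.74-fold and Lamp1 1.47-fold. The tetraspanin Cd63, too low to test, had 5 reads with WT and 6 with EV, a ratio of 0.821 (95% interval 0.198 to 3.23).

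All 8 tested glycan hydrolases rose with WT. Man2b1 had 6727 and 6829 normalised counts in WT libraries, against 3946 and 3854 in EV libraries (1.74-fold, log2 change 0.72, SE 0.02, limma adjusted p = 5.61e-19). Gla rose 1.82-fold, Gaa 1.78-fold and Neu1, the lysosomal sialidase, 1.74-fold. Hexa, the alpha subunit of beta-hexosaminidase, was too low to test, with 72 reads with WT and 113 with EV, a ratio of 0.628 (95% interval 0.461 to 0.851). In the sphingolipid group 5 rose and 1 fell. Grn had 10195 and 10333 normalised counts in WT libraries, against 3725 and 3522 in EV libraries, which put both WT libraries far above EV (2.83-fold, log2 change 1.37, SE 0.03, limma adjusted p = 2.09e-24). Tpp1 rose 2.30-fold and Psap 1.73-fold. Smpd1 went against the rest, with 381 and 387 normalised counts in WT libraries, against 614 and 618 in EV libraries (0.623 times, log2 change -0.37, SE 0.04, limma adjusted p = 2.73e-09).

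Tfe3 and Mitf rose with WT. Tfe3 had 1422 and 1451 normalised counts in WT libraries, against 925 and 930.0 in EV libraries, well apart (1.55-fold, log2 change 0.45, SE 0.03, limma adjusted p = 4.25e-12). Mitf had 286 and 335 normalised counts in WT libraries, against 231 and 188 in EV libraries, a rise at a low level (1.48-fold, log2 change 0.24, SE 0.04, limma adjusted p = 4.51e-05). Tfeb had 518 and 556 normalised counts in WT libraries, against 496 and 480.1 in EV libraries and did not pass (limma adjusted p = 0.10039). Sqstm1 had 6748 and 6932 normalised counts in WT libraries, against 3811 and 3750.3 in EV libraries, both WT libraries being clearly higher (1.81-fold, log2 change 0.77, SE 0.03, limma adjusted p = 2.26e-19). In the pump 10 of 12 genes rose and 1 fell. Atp6v0b had 2149 and 2346 normalised counts in WT libraries, against 1603 and 1667 in EV libraries (1.37-fold, log2 change 0.36, SE 0.03, limma adjusted p = 3.10e-10). Atp6v1b2, a nucleotide-binding V1 subunit, had 3507 and 3517 normalised counts in WT libraries, against 2295 and 2220.4 in EV libraries and led the pump (1.56-fold, log2 change 0.54, SE 0.03, limma adjusted p = 2.06e-15). Atp6ap2 had 2644 and 2662 normalised counts in WT libraries, against 1821 and 1859 in EV libraries (1.44-fold, log2 change 0.43, SE 0.03, limma adjusted p = 1.06e-12). Atp6v0a1 fell, with 320.4 and 335 normalised counts in WT libraries, against 422 and 361 in EV libraries (0.836 times, log2 change -0.12, SE 0.04, limma adjusted p = 0.0117), a call lost without EV replicate 1 or without WT replicate 1.

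With H499A, 35 of the 43 tested genes rose and 2 fell, whereas 22.7% of all genes tested rose and 26.9% fell. Without Ctsh, 35 of 42 rose and 1 fell. The median log2 change was 0.26, compared with -0.01 over all genes tested. H499A libraries lay wholly above EV for 37 genes, compared with 34.1% of all genes tested. Ctss, Ctsb and Psap led the rises, and Smpd1 fell. Ctss had 1548 and 1506 normalised counts in H499A libraries, against 685 and 642 in EV libraries, apart (2.30-fold, log2 change 0.82, SE 0.03, limma adjusted p = 3.88e-17). Ctsz rose 1.73-fold and Ctsb 1.81-fold. Ctsh had 0 and 2.89 normalised counts in H499A libraries, against 40.4 and 28.1 in EV libraries, both H499A libraries being near 0 and all 4 libraries below the floor. In reads, Ctsh had 3 with H499A and 67 with EV, a depth-scaled ratio of 0.0411 (95% interval 0.00827 to 0.125). Cd63 had 34 reads with H499A and 6 with EV, a ratio of 5.20 (95% interval 2.16 to 15.2), and Hexa 76 and 113, a ratio of 0.618 (95% interval 0.456 to 0.833).

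Lamp2 had 7923 and 7936 normalised counts in H499A libraries, against 5026 and 4679 in EV libraries and rose (1.63-fold, log2 change 0.65, SE 0.03, limma adjusted p = 6.07e-17). Mcoln1 had 322 and 386 normalised counts in H499A libraries, against 363 and 382 in EV libraries, an overlap, and did not pass (limma adjusted p = 0.480). Neu1 had 1000.05 and 1001 normalised counts in H499A libraries, against 592 and 582 in EV libraries, the largest rise of a glycan hydrolase here (1.71-fold, log2 change 0.49, SE 0.03, limma adjusted p = 5.20e-12), and 7 of 8 of that group rose. Psap had 24334 and 24225 normalised counts in H499A libraries, against 14124 and 13525 in EV libraries (1.76-fold, log2 change 0.79, SE 0.02, limma adjusted p = 3.97e-20). Smpd1 had 299.9 and 297 normalised counts in H499A libraries, against 614 and 618 in EV libraries and fell (0.484 times, log2 change -0.54, SE 0.04, limma adjusted p = 2.56e-12). Tfe3 had 1243 and 1183 normalised counts in H499A libraries, against 925 and 930.0 in EV libraries and rose (1.31-fold, log2 change 0.27, SE 0.03, limma adjusted p = 9.83e-08). Mitf had 247 and 254 normalised counts in H499A libraries, against 231 and 188 in EV libraries and just missed the threshold (limma adjusted p = 0.0510), and Tfeb had 486 and 550.0 normalised counts in H499A libraries, against 496 and 480.1 in EV libraries (limma adjusted p = 0.355).

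Sqstm1 had 4477 and 4581 normalised counts in H499A libraries, against 3811 and 3750.3 in EV libraries, both higher with H499A (1.20-fold, log2 change 0.23, SE 0.03, limma adjusted p = 1.77e-08). In the pump 10 of 12 genes rose with H499A. Atp6v0d1, the common V0 stalk subunit, had 2385 and 2404 normalised counts in H499A libraries, against 1841 and 1898 in EV libraries (1.28-fold, log2 change 0.29, SE 0.03, limma adjusted p = 3.03e-08). Atp6v1a had 4111 and 4061 normalised counts in H499A libraries, against 2994 and 2879.6 in EV libraries and rose most (1.39-fold, log2 change 0.41, SE 0.03, limma adjusted p = 4.93e-13). Atp6ap1 had 2526 and 2501 normalised counts in H499A libraries, against 2248 and 2183 in EV libraries (1.13-fold, log2 change 0.15, SE 0.03, limma adjusted p = 0.000119). Monocyte and macrophage markers, 14 of 15 measured, summed to 51607 to 53038 normalised counts in WT, 35139.9 to 35245 in H499A and 17432 to 18366 in EV libraries. Of 9 tested, 8 rose and 1 fell with WT and 8 rose with H499A. The 1 that fell, Fcgr1, passed the filter only through the H499A libraries, in which it is high. It had 28.4 and 31.4 normalised counts in WT, 162 and 151 in H499A and 43.4 and 62.6 in EV libraries. Its calls are in these counts but are not a valid test. Neutrophil markers summed to 1679.6 to 1691 with WT, 1137 to 1176 with H499A and 525 to 536 with EV, and S100a8, S100a9 and Ngp were at 0 in WT. Mmp8 made up most of the sum and alone was tested. It had 1640 and 1655 normalised counts with WT, 1007 and 992 with H499A and 377 and 345 with EV. Cxcr2 was lower, with 33.6 and 33.4 with WT, 63.1 and 59.8 with H499A and 90.7 and 111 with EV. Mmp9 and Ly6g, near 0 with EV, were higher with H499A. Basophil and mast cell markers, 3 of 6 measured, summed to 942 to 1009 with WT, 994 to 1029.8 with H499A and 1666 to 1668 with EV, and both that were tested, Gata2 and Mcpt8, fell with WT and with H499A. Mcpt8 passed the filter only through the EV libraries, in which it is high, so its fall is not a valid test. It had 51.5 and 35.4 normalised counts with WT, 83.6 and 71.4 with H499A and 244 and 244 with EV. Progenitor markers, 8 of 8 measured, summed to 140425 to 143080.0 with WT, 102220.0 to 103123 with H499A and 105612 to 109921 with EV, with 5 higher and 3 lower with WT and 2 higher and 4 lower with H499A. Mpo made up most of the sum, with 110435 and 112686 with WT, 81621 and 81107 with H499A and 84078 and 80481 with EV. The part of all these markers in these results was not tested. With H499A, the calls for Ctsl, Naglu and Atp6v1h were lost under at least 1 alternative, as was that for Glb1 with WT.

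WT was then compared with H499A. In that contrast 29 of 43 genes were higher with WT and 3 lower, whereas 28.2% of all genes tested were higher and 26.3% lower. Without Ctsh, 28 of 42 were higher and 3 lower. The median log2 difference was 0.16 without it, compared with 0.01 over all genes tested. WT libraries lay wholly above H499A for 31 of the 42, compared with 39.6% of all genes tested. The Kdm5b transcript was itself 4.80-fold higher in WT than in H499A libraries, so the level of the transgene and its activity cannot be told apart in this contrast. Apart from Ctsh, Grn differed most.

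Ctsh had 233 and 239.8 normalised counts in WT libraries, against 0 and 2.89 in H499A libraries, or 466 reads with WT and 3 with H499A, a depth-scaled ratio of 167 (95% interval 56.7 to 811). Ctss was 1.46-fold and Lgmn 1.61-fold higher with WT, and Ctsz was lower at 0.934 times the H499A level (limma adjusted p = 0.000891), a call lost under quantile normalisation. Mcoln1 had 502 and 498 normalised counts in WT libraries, against 322 and 386 in H499A libraries, apart (1.41-fold, log2 change 0.26, SE 0.04, limma adjusted p = 9.25e-06). Man2b1 had 6727 and 6829 normalised counts in WT libraries, against 5215 and 5227 in H499A libraries (1.30-fold, log2 change 0.34, SE 0.02, limma adjusted p = 5.22e-12), and Gusb was lower at 0.901 times the H499A level (limma adjusted p = 4.11e-05). Grn had 10195 and 10333 normalised counts in WT libraries, against 5894 and 5903 in H499A libraries, a wide gap (1.74-fold, log2 change 0.74, SE 0.03, limma adjusted p = 1.40e-18).

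Psap showed no such gap, with 23937 and 23996 normalised counts in WT and 24334 and 24225 in H499A libraries (log2 difference -0.02, 95% interval -0.07 to 0.03). Tfe3 was higher with WT (1.18-fold, log2 change 0.18, SE 0.03, limma adjusted p = 4.12e-05), and Mitf was 1.24-fold higher (limma adjusted p = 0.0132), a call lost without H499A replicate 1 or 2 or without WT replicate 2. Tfeb did not pass (limma adjusted p = 0.549). Sqstm1 had 6748 and 6932 normalised counts in WT libraries, against 4477 and 4581 in H499A libraries, both WT libraries being above (1.51-fold, log2 change 0.54, SE 0.03, limma adjusted p = 8.87e-16). The pump differed little, with 4 of 12 genes higher and 1 lower and a median log2 difference of 0.03. Atp6v0a1 had 320.4 and 335 normalised counts in WT libraries, against 459.6 and 432 in H499A libraries and was lower with WT (0.735 times, log2 change -0.22, SE 0.04, limma adjusted p = 6.87e-05). Atp6v1b2 had 3507 and 3517 normalised counts in WT libraries, against 3040.1 and 3094 in H499A libraries (1.15-fold, log2 change 0.17, SE 0.03, limma adjusted p = 8.05e-06), and Atp6ap2 had 2644 and 2662 normalised counts in WT libraries, against 2025 and 2124 in H499A libraries (1.28-fold, log2 change 0.29, SE 0.03, limma adjusted p = 3.46e-09). Atp6v0c did not differ beyond its error, with a log2 difference of -0.002 (95% interval -0.05 to 0.05). Cd63 had 5 reads with WT and 34 with H499A, a ratio of 0.158 (95% interval 0.0482 to 0.406), and Hexa had 72 and 76, a ratio of 1.02 (95% interval 0.726 to 1.42).

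**Figure D5:**
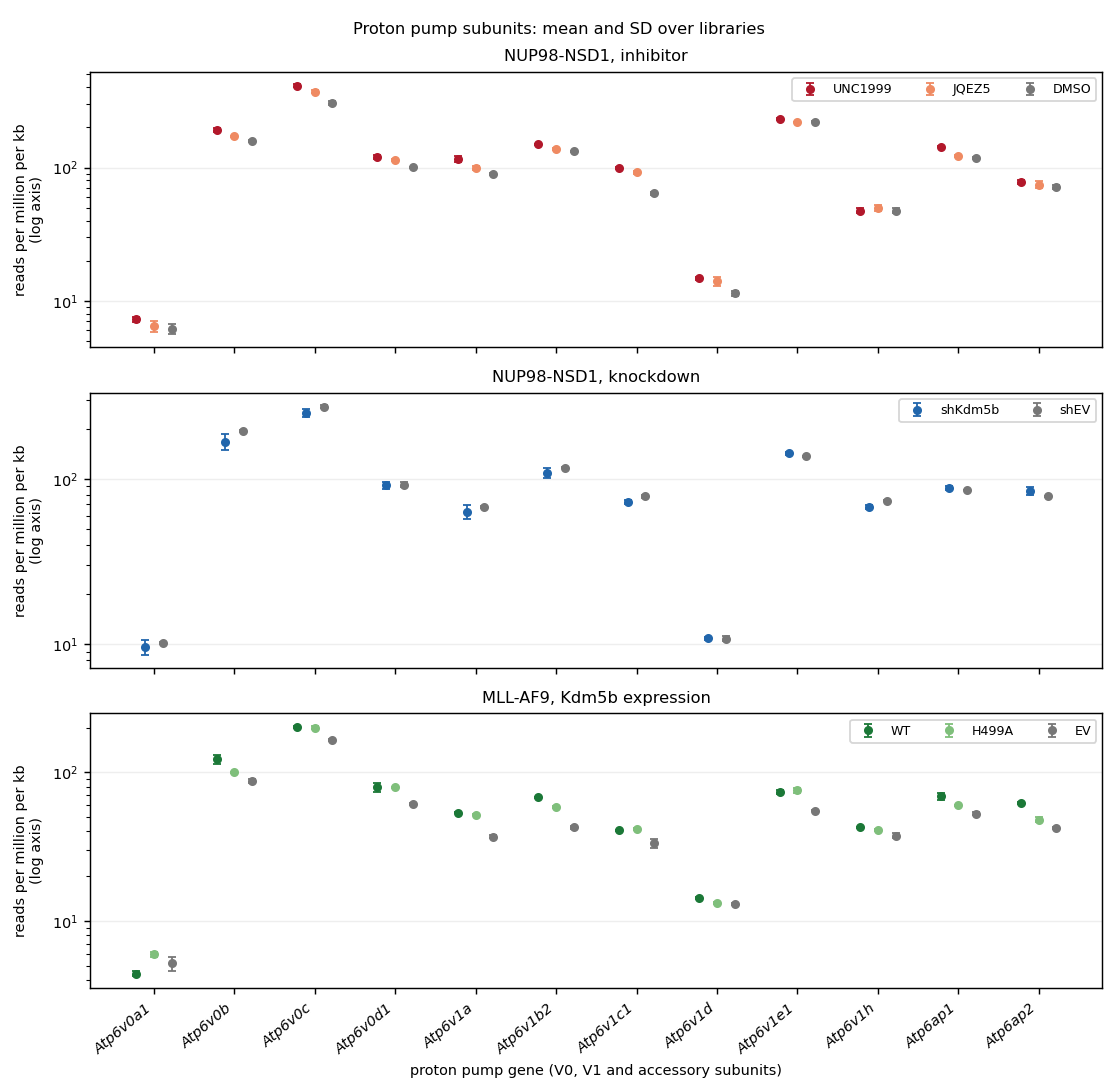
Levels per length (RPKM, log axis, mean and SD) of 12 proton pump subunits and accessory proteins in the 3 experiments (panels), which were normalised separately. In DMSO cells Atp6v0c was highest at 305 and Atp6v0a1 lowest at 6.11, and the groups of an experiment lie close to each other relative to the spread between subunits.

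The subunits of the pump differ widely per length although they assemble in 1 complex. In DMSO cells Atp6v0c had 305 RPKM, Atp6v1e1, a peripheral stalk subunit, 221, Atp6v0b 158, Atp6v1d 11.4 and Atp6v0a1 6.11. Atp6v0d2 had 0.556 with UNC1999, 0.420 with JQEZ5 and 0.0355 in DMSO cells, so it stayed the lowest of the listed subunits in each. The listed pump genes together, which leave out Tcirg1 and other subunits, took 0.302% of reads with UNC1999, 0.275% with JQEZ5 and 0.249% in DMSO cells. They took 0.157% with WT, 0.146% with H499A and 0.118% with EV.

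Lists from experiments without common libraries were set against each other. Of the 35 genes that rose with UNC1999, 33 (94.3%) also rose with WT in MLL-AF9 cells, which is 84.6% of the 39 that rose there, Ctsh included. Atp6v0a1 rose with UNC1999 and fell with WT. Ctsc and Galns, which fell with UNC1999, rose with WT. Of the 11 genes that fell with shKdm5b, all rose with WT (100% and 28.2% of the lists), but so did the 3 that rose with shKdm5b. Of the 35 that rose with UNC1999, 8 (22.9%) fell with shKdm5b, which is 72.7% of its 11 and below the 83.3% of all 42 tested genes that rose with UNC1999, and 2 (5.71%), Asah1 and Sqstm1, rose in both. The 8 were Ctsa, Ctsb, Ctsd, Ctsz, Gaa, Gusb, Ppt1 and Atp6v0b. Of all 43 genes tested in MLL-AF9 cells 39 rose with WT, and the shares are to be read against that.

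The 6 genes with TCACGTGA in the promoter window all rose with UNC1999 (median log2 change 0.47). Of the 29 tested genes whose window lacks it, 25 rose and 1 fell (median 0.31). With shKdm5b 2 of the 6 fell, compared with 6 of the 29 without it and 17.4% of all genes tested. With WT all 6 rose, compared with 26 of 30 without it and 29.8% of all genes tested.

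A further list of 42 other lysosomal genes was described in the same way. Its counts, and those of the next list, are to be read against the shares of all genes tested, which were 23.9% higher and 24% lower with UNC1999, 13.1% and 10.5% with JQEZ5, 18.7% and 17.7% for UNC1999 against JQEZ5, 15% and 17.4% with shKdm5b, 29.8% and 32.4% with WT, 22.7% and 26.9% with H499A, and 28.2% and 26.3% for WT against H499A. With UNC1999, 28 of 41 tested rose and 3 fell (median log2 change 0.24), or 27 of 40 without Ctsk. Ctsk, a collagen-degrading cathepsin, had 337 ± 37.0 normalised counts in UNC1999 cells, against 19.9 ± 1.59 in DMSO cells (SD, n = 3) (16.95-fold). Every DMSO library was below the filter, so Ctsk was tested only through the inhibitor libraries in which it is high, and no test is given. Acp2, an acid phosphatase, rose 1.76-fold and Lipa, the acid lipase, 1.49-fold. With JQEZ5, 18 rose and 6 fell, or 17 and 6 without Ctsk, which was 7.57-fold higher, with Lipa 1.24-fold higher and the sialomucin Cd164 at 0.797 times its DMSO level. Between the inhibitors 27 were higher with UNC1999 and 1 lower, and Npc1, the cholesterol exporter, differed 1.39-fold.

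With shKdm5b, 8 of 40 other lysosomal genes rose (20.0%) and 4 fell (10.0%), close to the shares of all genes. Gm2a, the activator protein of ganglioside breakdown, rose 1.69-fold and Laptm4b 1.76-fold, whereas Acp5, tartrate-resistant acid phosphatase, was at 0.288 times its shEV level, with every shKdm5b library below the filter. Without Acp5, 8 of 39 rose and 3 fell. With WT, 33 of 38 rose and 1 fell. Laptm4b was below the filter in every EV and H499A library, and without it 32 of 37 rose with WT. The gene that fell was Arsb, a sulfatase of dermatan sulfate, with 256 ± 12.8 normalised counts in WT cells, against 1103 ± 21.1 in EV cells (SD, n = 2) (0.232 times, limma adjusted p = 3.64e-20). Scpep1, a carboxypeptidase, rose 2.03-fold and Lipa 1.77-fold. With H499A, 21 rose and 2 fell, or 20 and 2 without Laptm4b, and Sgsh, the sulfamidase of heparan sulfate, rose 1.86-fold. Between WT and H499A, 25 were higher with WT and 3 lower, or 24 and 3 without Laptm4b, with Arsb at 0.241 times the H499A level and Dnase2a, an acid endonuclease, 1.48-fold higher.

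Of 10 tested genes in a list of other pump subunits and assembly factors, 8 rose with UNC1999, 4 rose and 1 fell with JQEZ5, and 5 were higher with UNC1999 than with JQEZ5. Tcirg1, the a3 subunit of osteoclasts and macrophages, rose 1.397-fold with UNC1999 and 1.39-fold with WT. Dmxl2, a subunit of the complex that reassembles the pump, rose 1.62-fold with UNC1999, 1.30-fold with JQEZ5 and 1.33-fold with shKdm5b. Its paralogue Dmxl1 rose 1.375-fold with UNC1999 and fell to 0.761 times its shEV level. With shKdm5b 2 rose and 3 fell, with WT 9 rose, with H499A 5 rose, and 7 were higher with WT than with H499A.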

How the data were processed

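RNA was extracted with a column kit and made into libraries with either of 2 named kits, per the labels' protocols, which do not say which kit made which library. Per the submitters' processing notes, the authors used mm10 (GRCm38.p4), STAR 2.4.2, Salmon 0.1.19 and DESeq2 1.38.2. The deposited values are log2 variance-stabilised expression by the authors, 1 table per experiment. The transformation was inverted to normalised counts, which gave whole reads for 100% of values below 1000 reads (tolerance 0.05) and the depth of each library.

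A gene was tested where its value was 1 log2 unit or more above the lowest of the table (59.0, 86.6 and 145 normalised counts for inhibitor, knockdown and overexpression) in at least the number of libraries of the smallest group. The test was limma 3.58.1 (R 4.3.3), with group means as coefficients, a trended eBayes and Benjamini-Hochberg adjustment over all genes tested. Other steps used Python 3.11.15 and scipy 1.17.1. Library values are given for the called gene with the largest change in each role group, 2 of them for UNC1999 and shKdm5b, and for Tfeb, Tfe3, Mitf, Mcoln1, Sqstm1 and Atp6v0d2. Other lists name up to 4 called genes of lowest p, of which some are not reported here. Counts without genes wholly below the filter in a compared group were added after the data were seen. Genes and lists were chosen with earlier results of these data known. Gene coordinates and exon lengths are from GENCODE M21 (GRCm38). Alternatives covered the filter, centring, quantile normalisation, eBayes options, a voom fit of recovered reads, a replicate block, the groups in the fit and leaving out each library. Same-numbered libraries did not deviate together, so the numbers were not used as pairs.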

Additional observations from a re-analysis of the deposited data

How the results depend on the processing

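Counts here include Ctsh, and without it the genes that fell with H499A went to 1. Most calls kept their side of the threshold under every alternative in which the gene was tested. Of the calls upward, 31 of 35 held for UNC1999, 19 of 22 for JQEZ5, 27 of 34 for UNC1999 against JQEZ5, 1 of 3 for shKdm5b, 38 of 39 for WT, 32 of 35 for H499A and 26 of 29 for WT against H499A. Of the calls downward, 1 of 2, 3 of 4, 2 of 11, 1 of 2, 2 of 2 and 2 of 3 held for UNC1999, JQEZ5, shKdm5b, WT, H499A and WT against H499A. With shKdm5b, the genes that rose went to 6 under median centring and those that fell to 7 under quantile normalisation. A filter at 2 log2 units left no downward call for WT (0) or H499A (0) because the genes concerned were no longer tested, and H499A had 1 in a fit of its 2 groups alone, which tested 42 genes. The log2 change of Psap turned to -0.0149 (UNC1999) and -0.0518 (JQEZ5) under quantile normalisation, and the cause was not tested. Leaving out 1 library gave 33 to 36 higher and 1 to 2 lower for UNC1999, 20 to 22 and 3 to 4 for JQEZ5, 31 to 34 and 0 to 0 for UNC1999 against JQEZ5, 1 to 8 and 2 to 14 for shKdm5b, 38 to 39 and 1 to 2 for WT, 32 to 37 and 2 to 2 for H499A, and 26 to 29 and 3 to 3 for WT against H499A. Same-numbered libraries correlated at -0.15 to 0.223. With a replicate block, 34 rose and 2 fell for UNC1999, 20 and 4 for JQEZ5, 4 and 8 for shKdm5b, 39 and 2 for WT and 37 and 2 for H499A. Depth limits Ctsh, Cd63, Hexa and Atp6v0d2, whose intervals cover counting error only. The spread between shKdm5b libraries limits small changes in the knockdown.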

Other observations

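Genes that sort enzymes to the lysosome were called in both directions. The counts here are to be read against all genes tested, of which 23.9% rose and 24% fell with UNC1999, 13.1% and 10.5% with JQEZ5, 15% and 17.4% with shKdm5b, 29.8% and 32.4% with WT, and 22.7% and 26.9% with H499A. Of 24 tested, 12 rose and 3 fell with UNC1999, 7 rose and 2 fell with JQEZ5, 2 rose and 5 fell (20.8%, near the share of all genes) with shKdm5b, 14 rose and 4 fell with WT, and 11 rose and 3 fell with H499A. Sort1, a sorting receptor of the Golgi, rose 3.09-fold with WT (limma adjusted p = 1.75e-21) and 3.55-fold with H499A (limma adjusted p = 2.17e-22), and had 0.819 times its DMSO level with JQEZ5. Gnptab, which makes the mannose 6-phosphate tag, rose 1.46-fold with WT and 1.23-fold with H499A. Sumf1, which activates sulfatases, fell to 0.690 times its shEV level with shKdm5b.

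Of the autophagy genes, 9 of 25 rose and 3 fell with UNC1999, 4 rose (16%) and 6 fell (24.0%) with JQEZ5, 8 of 24 rose and 2 fell with shKdm5b, 16 of 23 rose and 2 fell with WT, and 6 rose (26.1%) and 9 fell (39.1%) with H499A. Tax1bp1, an autophagy receptor, fell to 0.679 times the EV level with WT and to 0.707 times with H499A. Wipi1, a phagophore protein, rose 1.71-fold with shKdm5b. It was below the filter in EV cells, and without it 15 of 22 autophagy genes rose with WT and 5 of 22 with H499A. Of genes of nutrient sensing at the lysosome, 10 of 18 rose and 1 fell with UNC1999, 6 rose with JQEZ5, 2 of 18 fell with shKdm5b, 11 of 19 rose and 2 fell with WT, and 4 rose and 2 fell with H499A. Among them, Fnip2, a folliculin partner, rose 3.50-fold with UNC1999, 2.47-fold with JQEZ5, 1.71-fold with WT and 1.52-fold with H499A. Tfec, the remaining MiT/TFE family member, rose 3.55-fold with WT and 2.51-fold with H499A (limma adjusted p = 1.23e-18 and 5.36e-15), and fell to 0.806 times the DMSO level with UNC1999. Of 6 inhibitors of lysosomal proteases, 3 rose and 2 fell with UNC1999, 4 rose with JQEZ5, 2 rose with shKdm5b, 3 rose with WT, and 2 rose and 3 fell with H499A. Of these, Cstb, a cystatin, rose 2.04-fold with WT and 1.78-fold with H499A, whereas Cst7, a cystatin of immune cells, was at 0.307 times the EV level with H499A, where both libraries were below the filter. Serpinb6a was also below it in H499A cells, and without these 2 genes 2 of 4 rose and 1 fell with H499A.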
